A study of Mus musculus with 5 samples.

Results

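MicroRNAs encoded in the imprinted Dlk1-Dio3 locus of mouse chromosome 12 were described across 5 tissues: the gastrocnemius and soleus muscles and brown, inguinal and epididymal adipose tissue. Members were chosen by name. The rule lists 47 microRNA numbers that map to the locus, and 46 of them had at least 1 probe (miR-370 was not analysed here), which gave 69 probes of the 598 mouse microRNA probes on the array. All tissues came from C57BL/6 mice at 2 to 3 months after birth, with no treatment or engineered allele named in the labels. Each tissue was measured on 1 array of a locked-nucleic-acid capture design (miRCURY LNA) with 1 dye, and the number of animals behind each RNA is not in the labels. With 1 array per tissue no difference has a replicate check, and statistical tests were not made. Errors given below are standard errors from the 4 spots of a probe and cover spot-to-spot noise only.

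The locus is a cluster of imprinted genes. The paternal allele expresses the protein genes Dlk1, Rtl1 and Dio3, and the maternal allele expresses the long noncoding RNAs Meg3, Rian and Mirg together with the microRNAs that lie within or between them. Most of these microRNAs lie in 2 groups, one transcribed antisense to Rtl1 and able to pair perfectly with its messenger RNA, the other the long run from miR-379 to miR-410 around Mirg. They are known chiefly from brain, placenta and the embryo, and their host transcripts are also known from skeletal muscle.

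Mature sequences came from RefSeq (GRCm38.p6) and were found for 66 of the 69 members, 20 by an arm suffix in the array's name and 46 by the earlier naming of the arm, since the array's names often give none. Among the 20 sequences found for members that reached the detection floor, no 2 had the same seed (bases 2 to 8). The members that were highest in muscle relative to fat are shown first, with the seed in capitals and each sequence written 5′ to 3′.
miR-434-3p: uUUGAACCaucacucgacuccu
miR-434-5p: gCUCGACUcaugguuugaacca
miR-136: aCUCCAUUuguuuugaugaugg
miR-127: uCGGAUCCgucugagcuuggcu
miR-299*: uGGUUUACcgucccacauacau
miR-411: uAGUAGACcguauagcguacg
miR-329: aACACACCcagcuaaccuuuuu
miR-379: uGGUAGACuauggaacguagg
Their seeds differ from each other. The miR-379 seed also occurs in miR-1193-5p, the miR-411 seed in miR-7229-5p and the miR-329 seed in miR-362-3p among mouse mature sequences. Over all 66 sequences there were 65 distinct seeds, and the only pair that shared one was miR-376b* and miR-376c*, whose letters differ at 1 position.
miR-376b*: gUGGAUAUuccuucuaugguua
miR-376c*: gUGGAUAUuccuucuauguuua
The probes of such near-identical molecules can bind each other's targets, so separate values for this pair are uncertain. The same limit holds for miR-299*, which is 1 edit from miR-299b-5p, and for miR-411*, which is 2 edits from miR-379-3p. It also holds for miR-300 with miR-381 and for miR-376a with miR-376b, each pair 3 edits apart.

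The detection floor was 50 units of background-subtracted intensity. Folds are ratios of normalized intensity, which is that intensity divided by the array's own scale, and a reading under the floor was raised to the lowest detected level of its array (or kept, where higher), so that such a fold is a bound. Of the 69 members, 21 were detected on at least 1 array and 6 on every array, and 48 were under the floor throughout. Soleus had 19 detected members, gastrocnemius 18, epididymal fat 13, brown fat 8 and inguinal fat 7, while the detected mouse probes as a whole ran only between 148 and 170 per array. Empty spots read at most 2.5 units and negative control probes at most 6. Viral probes, which have no target named here, read 50 units or more in 1 to 3 of 39 cases per array, so the floor does not keep out all stray signal. The tissue labels were checked against microRNA markers. The skeletal muscle list (miR-1, miR-206, miR-133a, miR-133b) summed to 12836 units in gastrocnemius and 15676.5 in soleus, against 2836 in brown, 203 in inguinal and 141.5 in epididymal fat, and the slow muscle pair (miR-208b, miR-499) summed to 8149.5 units in soleus and 271.5 in gastrocnemius. Of the brown adipocyte list, all 7 microRNAs were detected in brown fat, 5 in inguinal and 4 in epididymal fat, 3 in gastrocnemius and 4 in soleus. The list summed to 10766.5 units in brown, 2108 in inguinal and 3164 in epididymal fat. It summed to 6878 units in gastrocnemius and 6711 in soleus, most of it miR-378 (5958 and 6074.5), so it sets brown fat less apart from muscle.

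The first comparison set both muscles against the 3 fat depots. Of the 21 detected members, 7 were at least 2-fold higher in every one of the 6 muscle over fat pairs: miR-434-3p, miR-299*, miR-434-5p, miR-127, miR-329, miR-411 and miR-136. None was 2-fold lower in every pair. Of all 207 mouse probes at the floor on any array, 8.21% were called higher and 4.35% lower by the same rule. Without a fold threshold, both muscle arrays lay above all 3 fat arrays for 17 of the 21 members, an order found for 21.7% of the 207 probes, and no member had the opposite order, found for 25.6%. With spike-in scaling the members with both muscles on top were 11. That scaling moved the median log2 ratio of the 123 probes detected on all arrays from -0.03 to -0.42. The share of all probes in this order under that scaling is not given here, so the lower count may not be particular to the members. The median of the members' mean log2 ratio was 1.09 over the 17 members with a ratio in every pair, against 0.08 over 165 mouse probes.

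**Figure D1:**
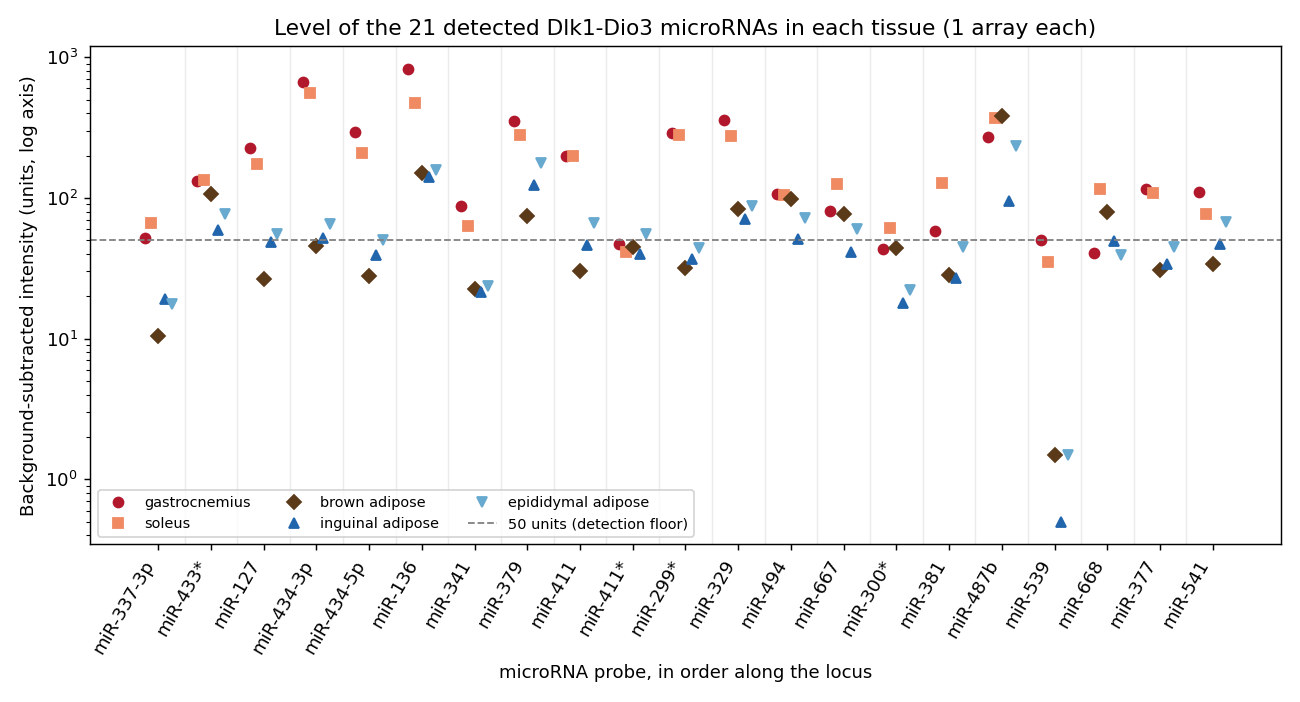
Background-subtracted intensity (units, log axis) of the 21 detected members in gastrocnemius, soleus, brown, inguinal and epididymal fat, 1 point per array, in order along the locus. The muscle points of miR-434-3p (662 and 559 units) stand far above its fat points (at most 65.5), while miR-487b has its highest point in brown fat (384.5).

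These counts describe the members that passed the floor and are no test of it, because 7 of the 21 passed on a muscle array alone (miR-299*, miR-300*, miR-337-3p, miR-341, miR-377, miR-381 and miR-539) and 1 on a fat array alone (miR-411*). A filter on the mean of the 5 arrays at 50 units, added after the data were seen, kept 16 members, of which 3 (miR-299*, miR-377 and miR-381) had every fat reading under 50 units and so also passed through muscle. Of the 16, 7 were called higher in muscle (9.94% of 171 probes) and 0 lower (5.26%), and 13 had both muscles on top (21.6%). In tissue RNA, fewer cells that make a microRNA and less of it per cell cannot be told apart.

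The antisense group, named for its position opposite Rtl1, held 5 precursors and 10 probes between chr12:109590447 and 109595388, and 4 of the 7 called members lay there. The miR-434 precursor (chr12:109594506-109594599, plus strand, as for all matched members) gave the largest fold among the members. miR-434-3p read 662 units in gastrocnemius and 559 in soleus, against 45.5 in brown, 51.5 in inguinal and 65.5 in epididymal fat. The groups did not overlap, and the fold over the fat arrays was lowest for soleus over epididymal fat, 7.23-fold (log2 2.85, spot SE 0.12), and highest for gastrocnemius over brown fat, at least 14.1-fold. miR-434-5p, from the other arm, read 291.5 units in gastrocnemius and 209.5 in soleus, against 28 in brown, 39.5 in inguinal and 50 in epididymal fat. Its lowest fold was 3.55 (log2 1.83, spot SE 0.15), again for soleus over epididymal fat.

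miR-136 (chr12:109595327-109595388) also lies opposite Rtl1. It read 829 units in gastrocnemius and 473 in soleus, against 150 in brown, 140 in inguinal and 158.5 in epididymal fat. It was detected on all 5 arrays, so none of its folds is a bound: they ran between 2.53 and 6.11, with spot SEs of at most 0.10 on the log2 scale. The 3 fat depots lay within a narrow band, and the muscles lay apart from it and from each other.

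miR-127 (chr12:109592846-109592915), the member best known for pairing with Rtl1 messenger RNA, read 224.5 units in gastrocnemius and 173.5 in soleus, against 26.5 in brown, 48.5 in inguinal and 55.5 in epididymal fat. Its spots were among the noisier ones, with brown fat spots between 20 and 46 units. The lowest fold was 2.65 (log2 1.40, spot SE 0.38), so the size of this difference is known less well than those of miR-434 and miR-136. miR-433* was the remaining detected probe of the antisense group. It read 132 units in gastrocnemius and 135 in soleus, against 106 in brown, 59.5 in inguinal and 77 in epididymal fat, and passed 2-fold only over inguinal fat (2.29-fold for gastrocnemius and 2.04-fold for soleus).

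The long group from miR-379 to miR-410 held 34 precursors and 48 probes (chr12:109709060-109743795), of which 14 probes were detected and 3 were called higher in muscle. miR-299* (chr12:109710638-109710700) read 290 units in gastrocnemius and 279 in soleus, against 32 in brown, 36.5 in inguinal and 44 in epididymal fat. All 3 fat values were under the floor, so its folds are bounds, at least 4.72-fold in every pair. miR-411 (chr12:109710175-109710256) read 198 units in gastrocnemius and 200 in soleus, against 30 in brown, 46.5 in inguinal and 66.5 in epididymal fat. Both muscles were nearly level for these 2 neighbours, and the lowest miR-411 fold was 2.55 (log2 1.35, spot SE 0.11).

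miR-329 (chr12:109713481-109713577), known from rat neurons for a part in dendrite growth, read 356.5 units in gastrocnemius and 274.5 in soleus, against 83 in brown, 70.5 in inguinal and 88 in epididymal fat. It was detected everywhere, with folds between 2.64 and 5.21. miR-379, the first microRNA of the run, missed the rule through epididymal fat. It read 350.5 units in gastrocnemius and 281 in soleus, against 74 in brown, 124 in inguinal and 177.5 in epididymal fat. The muscles were on top, but by only 1.92-fold and 1.34-fold over epididymal fat.

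**Figure D2:**
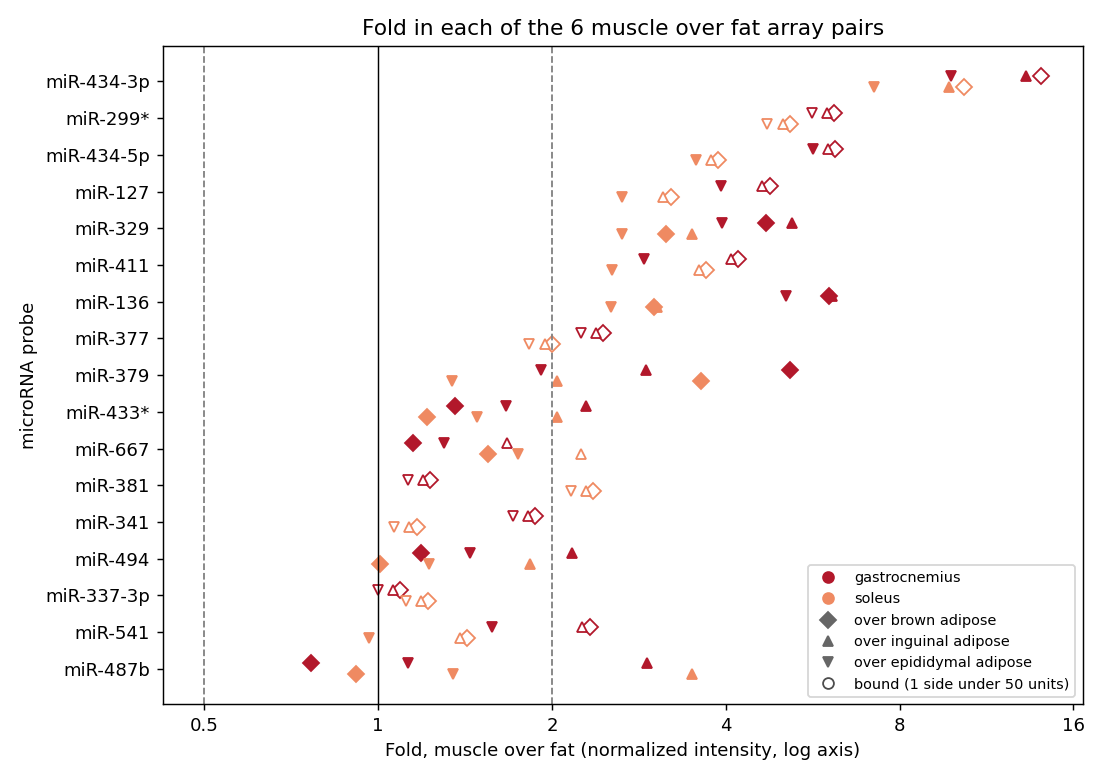
Fold of normalized intensity (log axis) in each of the 6 pairs of a muscle over a fat array, for the 17 members with a ratio in every pair. Colour gives the muscle, shape the fat depot, open points are bounds and dashed lines mark 2-fold; the top 7 members have every point beyond 2-fold, and miR-487b has points on both sides of 1.

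Scaling decided some of these calls. Under 6 other ways of scaling the arrays, miR-434-3p and miR-299* stayed past 2-fold in every pair, with lowest folds of 3.55 and 2.32. Scaling to the spike-in probes ended the other 5 calls, with lowest folds between 1.24 (miR-136) and 1.74 (miR-434-5p), and normexp correction with quantile normalization ended those of miR-127, miR-329 and miR-411.

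The other detected members did not reach 2-fold in every pair at the floor of 50 units. miR-377 was close to the rule, with 115.5 units in gastrocnemius and 108 in soleus, against 30.5 in brown, 34 in inguinal and 44.5 in epididymal fat, and with fat values raised to the floor its fold was at least 1.83 in every pair. miR-341, in an isolated position within Rian (chr12:109611500-109611595), read 88 units in gastrocnemius and 63 in soleus, against 22.5 in brown, 21.5 in inguinal and 23.5 in epididymal fat. Both had muscle and fat ranges that did not overlap. miR-337-3p read 51.5 units in gastrocnemius and 66 in soleus, against 10.5 in brown, 19 in inguinal and 17.5 in epididymal fat. miR-539 read 50.5 units in gastrocnemius and 35 in soleus, against 1.5 in brown, 0.5 in inguinal and 1.5 in epididymal fat. The miR-539 fat readings were at the level of the negative controls. At the floor of 10 units miR-539 was at least 2.96-fold and miR-337-3p 2.80-fold higher in every pair, so the floor of 50 units hides much of their difference.

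Some members did not separate muscle from fat by much in every pair, or at all. miR-494, reported to act on mitochondrial biogenesis in mouse muscle cells, read 107 units in gastrocnemius and 104 in soleus, against 98.5 in brown, 51 in inguinal and 72 in epididymal fat. Brown fat was within 1.19-fold of either muscle for it. miR-541 read 109.5 units in gastrocnemius and 77 in soleus, against 34 in brown, 47 in inguinal and 67.5 in epididymal fat, and after scaling soleus was 0.966 of epididymal fat. miR-411* was close to level, at 47 units in gastrocnemius and 41 in soleus, against 45 in brown, 40 in inguinal and 55.5 in epididymal fat. miR-667, miR-381, miR-300* and miR-668 had their highest reading in soleus, with 125, 127.5, 61.5 and 115.5 units in that order. For miR-668, gastrocnemius read 40.5 units, against 79.5 in brown fat, so the muscles did not lie together.

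miR-487b, 1 of the 4 detected members without both muscles on top (with miR-541, miR-411* and miR-668), was highest in brown fat. Its normalized intensity, relative to the array's own scale, was 0.660 in gastrocnemius and 0.789 in soleus, against 0.863 in brown, 0.226 in inguinal and 0.586 in epididymal fat. The muscles over brown fat gave 0.765-fold (gastrocnemius) and 0.915-fold (soleus). Over inguinal fat the same muscles gave 2.92-fold and 3.49-fold, so the fat depots differed from each other more than the muscles differed from brown fat.

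Many members sat under 50 units with an order like that of the detected ones. Of the 48 members under 50 everywhere, 23 reached 10 units on at least 1 array, up to 44.5, and 25 stayed under 10 units, with 9 the highest reading among them. Lowering the floor to 10 units was chosen after these values were seen. It took in 44 members, of which 15 were at least 2-fold higher in every muscle over fat pair and 0 lower, while 8.07% of 347 mouse probes were called higher and 3.75% lower. Both muscles were above all fat arrays for 32 of the 44 members, against 20.5% of the 347 probes. These counts too are a description only, since 13 of the 44 reached 10 units on muscle arrays alone and 4 on fat arrays alone.

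The members added at this floor include passenger and partner strands. miR-540-5p read 44.5 units in gastrocnemius and 43.5 in soleus, against 3 in brown, 3 in inguinal and 3.5 in epididymal fat, at least 3.68-fold in every pair. miR-136* read 41.5 units in gastrocnemius and 44 in soleus, against 5.5 in brown, 7 in inguinal and 7.5 in epididymal fat, at least 3.73-fold. miR-369-3p read 34 units in gastrocnemius and 27 in soleus, against 4 in brown, 2 in inguinal and 5.5 in epididymal fat, at least 2.29-fold. In all 3 the fat readings were near the highest negative control reading of 6 units. Along the locus, counts of called members are given over the probes at 10 units or more on any array. They were 2 of 6 between Meg3 and Rtl1 and 6 of 7 antisense to Rtl1. The single probe in Rian was called, and 6 of 30 were from miR-379 to miR-410. By the same rule 8.07% of 347 mouse probes were called higher. Both muscles were above all fat arrays for 3, 7, 1 and 21 of these probes in the same order of groups, against 20.5% of the 347. Raising fat readings to 10 units lowers the fold, so the floor limits the called counts and they do not set the groups apart. The other probes of these groups (10, 10 and 48 probes in all, apart from Rian) were under 10 units throughout.

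**Figure D3:**
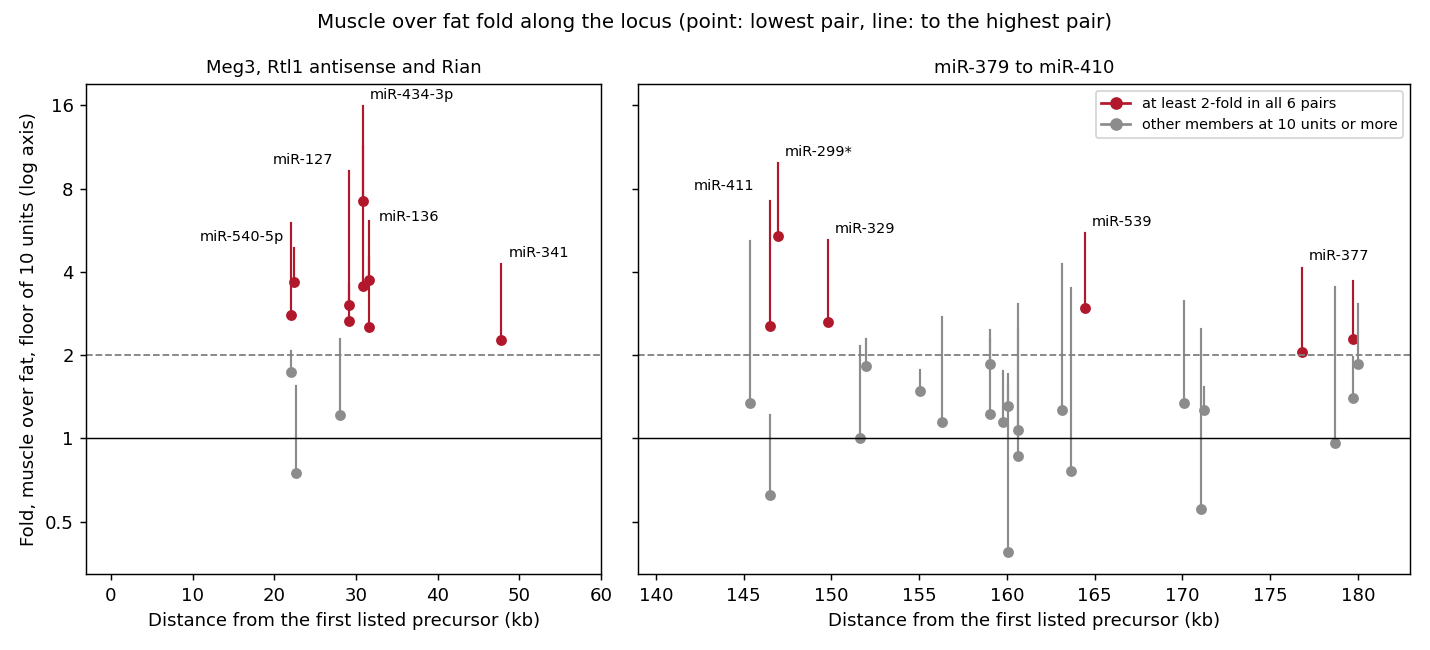
Fold of muscle over fat at a floor of 10 units (log axis) against distance from the first listed precursor (kb), each point being the lowest of the 6 pairs and each line reaching to the highest. Red members are at least 2-fold in all 6 pairs; they occur in both stretches of the locus, with miR-434-3p and miR-299* the highest in their stretch.

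A few members with low readings were highest in brown fat. miR-380-5p read 4.5 units in gastrocnemius and 4 in soleus, against 25.5 in brown, 1.5 in inguinal and 1 in epididymal fat. miR-376b, whose precursor is known to be edited in brain, read 5.5 units in gastrocnemius and 4.5 in soleus, against 14.5 in brown, 5 in inguinal and 9 in epididymal fat. The group nearest Meg3 was also mostly dim: miR-770-3p read 20.5 units in gastrocnemius and 5 in soleus, against 26 in brown, 8.5 in inguinal and 24 in epididymal fat. After scaling, miR-770-3p was highest in epididymal fat (normalized intensity 0.0606, against 0.0583 in brown fat). miR-134, a regulator of dendritic spines in rat neurons, read at most 3 units on any array.

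Both arms of a precursor had probes for 23 precursors, which allows their tissue ratios to be set side by side. At 10 units both arms were present for 11 precursors, 1 arm for 7 and neither for 5. Both arms were called higher in muscle for 3 of these 11, miR-127, miR-136 and miR-434. Among single mouse probes 8.07% of 347 were called higher at this floor, and a share for pairs of arms is not given here. For miR-337 and miR-369 only the 3p arm was called. The 5p arms had every fat reading under 10 units, and raising these lowers the fold. As deposited, the lowest muscle over the highest fat was 4.61-fold for miR-337-5p and 3.49-fold for miR-369-5p. It was 2.05-fold and 3.96-fold for miR-376c and miR-376c*, also with fat under 10 units, so the floor limits this count. miR-434-3p averaged 10.9-fold and miR-434-5p 6.24-fold (geometric means over the 6 pairs), and miR-127 averaged 4.58-fold and miR-127* at least 3.33-fold. miR-136 averaged 4.04-fold and miR-136* at least 4.11-fold, so the bound leaves the gap between these arms unknown. The arms of miR-411 went apart, with a mean of 4.23-fold for miR-411 and 0.910-fold for miR-411*, whose probe may also bind miR-379-3p. For miR-299, miR-299* read 290 and 279 units in the muscles where the probe of the opposite arm, miR-299, read 5.5 units in gastrocnemius and 6 in soleus. Levels of different probes are not comparable, so these readings do not give a ratio of arms.

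**Figure D4:**
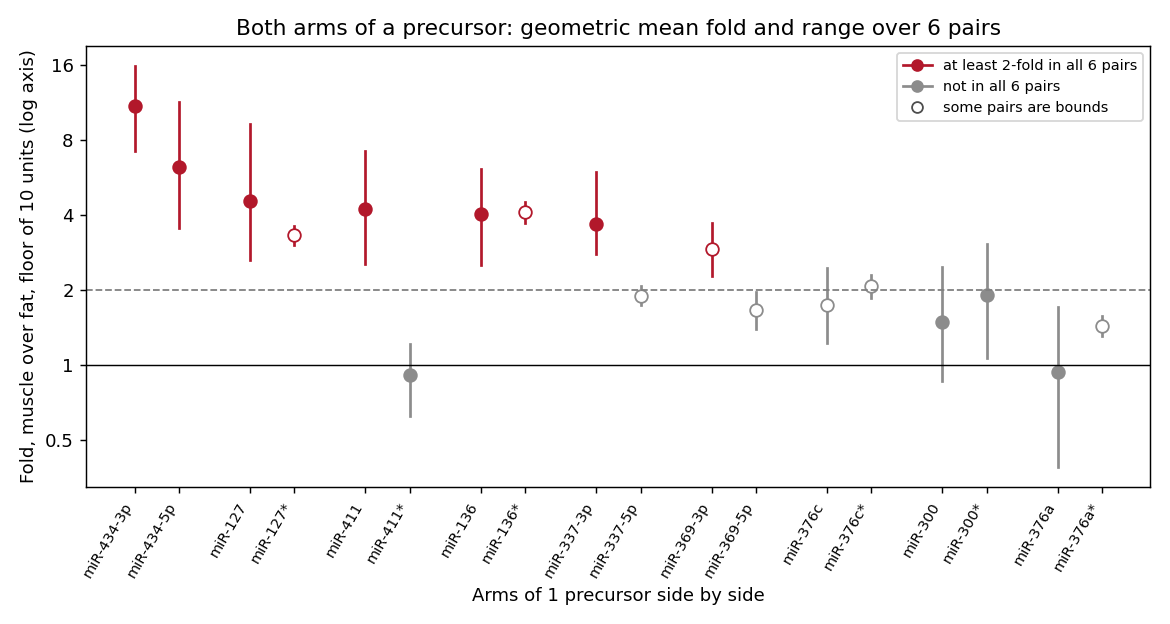
Geometric mean fold of muscle over fat (points) and range over the 6 pairs (lines) at a floor of 10 units, log axis, for both arms of 9 precursors. Both arms of miR-434, miR-127 and miR-136 are beyond 2-fold in all pairs (red), while miR-411 and miR-411* lie far apart.

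The muscles were also set against brown and white fat separately. Over brown fat alone, 8 of 20 detected members were at least 2-fold higher in both muscles, the 7 named above and miR-379, and none was lower, while 13.2% of 190 mouse probes were called higher and 10% lower. All 8 stayed past 2-fold under the 6 other scalings. Over the white depots, 7 of 21 were higher in all 4 pairs, the same 7, with 11% of 200 mouse probes called higher and 8.5% lower. Of these 7 calls, 2 were left with spike-in scaling and 4 with normexp and quantile normalization. miR-379 was 5.18-fold higher in gastrocnemius and 3.62-fold higher in soleus than in brown fat, against 2.92-fold and 2.04-fold over inguinal fat. These comparisons share the muscle arrays.

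Brown fat was set against the white depots next. Among 14 members, 0 passed the 2-fold rule in either direction against both white depots, where 7.89% of 190 mouse probes were called higher and 4.21% lower. The members did not move one way. Their median log2 ratio was 0.36 over the 9 members with a ratio in both pairs, against 0.10 over 164 mouse probes. This left out miR-127, miR-411, miR-411*, miR-434-5p and miR-541, which were under 50 units in both brown and inguinal fat and so had no ratio there. All of them were lower in brown than in epididymal fat. At the floor of 10 units the median was -0.13 over 30 members, against 0.13 over 312 mouse probes. With spike-in scaling the median of 0.36 turned to -0.60. miR-487b was 3.82-fold higher in brown than in inguinal fat (log2 1.93, spot SE 0.12) and 1.47-fold higher than in epididymal fat (log2 0.56, spot SE 0.06). miR-433*, miR-494, miR-667 and miR-668 were also higher in brown than in both white depots, by 1.13-fold (miR-667) to at least 1.41-fold (miR-668) in the nearer pair. miR-379 lay the other way, at 0.563-fold over inguinal fat (log2 -0.83, spot SE 0.17) and 0.370-fold over epididymal fat (log2 -1.43, spot SE 0.24).

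Brown fat was the lowest of the 5 arrays for 11 of the 21 detected members and inguinal fat for 8. The share of all mouse probes with each of these arrays lowest is not given here, so the counts may not be particular to the members. Brown fat lay below both white depots for 11 members, an order found for 30.9% of 207 probes, and above both for 6, found for 36.7%. The brown fat array held the skeletal muscle list at 2836 units, against 203 in inguinal and 141.5 in epididymal fat. miR-434-3p read 45.5 units in brown fat, against 51.5 in inguinal and 65.5 in epididymal fat. The part of muscle RNA in the brown fat values was not tested.

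**Figure D5:**
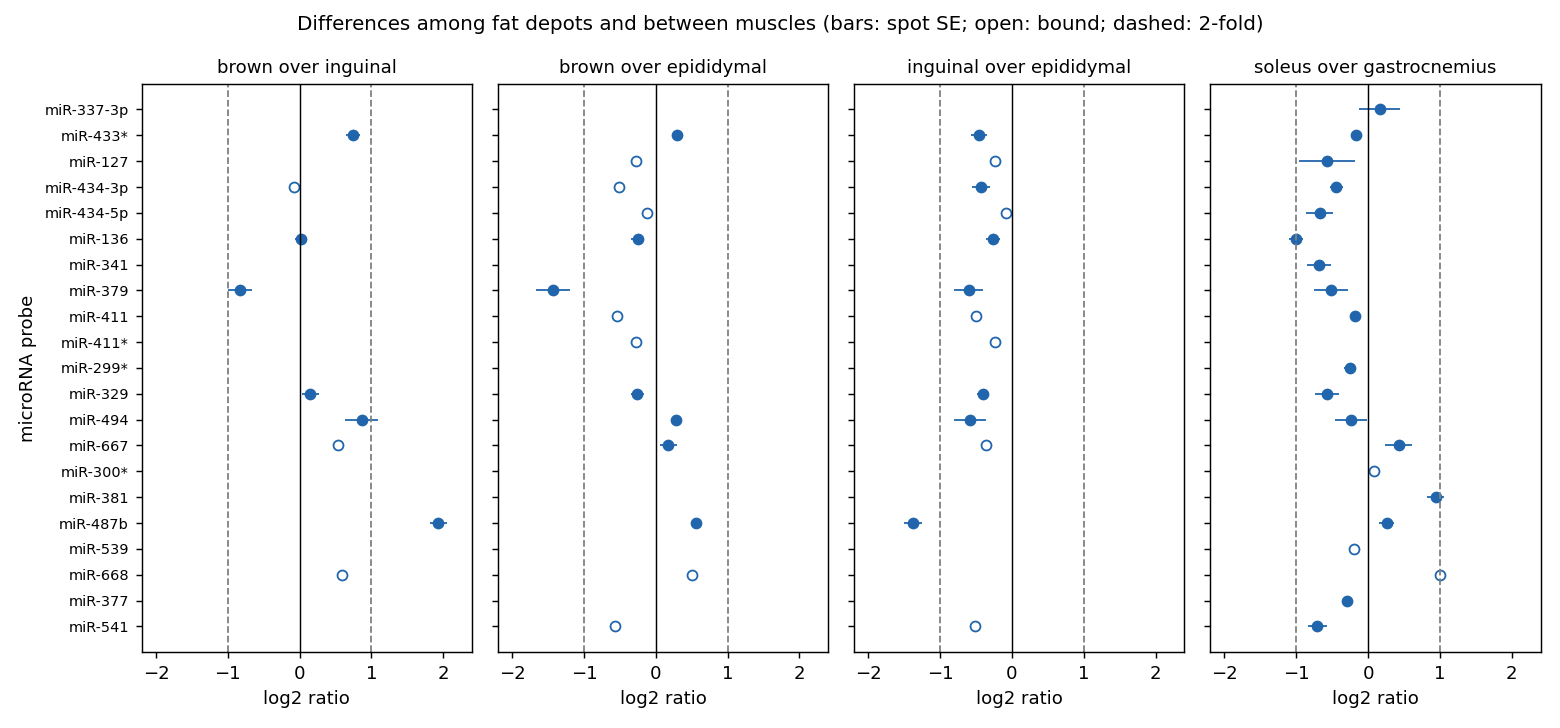
Log2 ratio of normalized intensity for brown over inguinal, brown over epididymal, inguinal over epididymal and soleus over gastrocnemius, for members with a ratio; bars are spot SEs, open points are bounds and dashed lines mark 2-fold. miR-487b stands out in the fat panels and miR-136 reaches the 2-fold line in the muscle panel.

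Between the white depots, 1 of 13 members was at least 2-fold different: miR-487b, lower in inguinal fat by 2.59-fold (log2 -1.37, spot SE 0.13). By the same rule 11.6% of 172 mouse probes were lower and 5.81% higher in inguinal fat. The members' median log2 ratio was -0.43 and that of all 172 probes -0.40. Inguinal fat read below epididymal fat for 19 of 21 detected members, an order found for 68.6% of all probes. This sign depends on the scaling: with the 75th percentile of the probes detected on all arrays, the median over the members was 0.11 and the miR-487b fold 1.78. The leukocyte list summed to 9567.5 units in inguinal and 4219 in epididymal fat and the epithelial list to 89 and 678.5, and their part in the result was not tested.

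Between the muscles, 1 of 20 members was at least 2-fold different: miR-136, lower in soleus by 2.01-fold (log2 -1.01, spot SE 0.10), just past the threshold and 1.75-fold with no scaling. By the same rule 2.27% of 176 mouse probes were lower and 2.84% higher in soleus. Gastrocnemius was above soleus for 15 of 21 members, an order found for 53.1% of probes, and the members' median log2 ratio was -0.25, against -0.04 for all probes. miR-434-5p (log2 -0.67, spot SE 0.19), miR-541 (log2 -0.71, spot SE 0.13) and miR-341 (log2 -0.68, spot SE 0.17) were lower in soleus without reaching 2-fold. miR-381 went the other way and was 1.92-fold higher in soleus (log2 0.94, spot SE 0.12), and miR-668 was at least 1.99-fold higher.

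Neural microRNAs were read beside the members because the locus is best known from brain. The list of 8 summed to 355.5 units in gastrocnemius and 655.5 in soleus, against 282 in brown, 118.5 in inguinal and 64 in epididymal fat. miR-128 made up most of the muscle readings, with 295 units in gastrocnemius and 542 in soleus, against 24 in brown, 27.5 in inguinal and 11 in epididymal fat. miR-124 read 16.5 units in gastrocnemius and 59 in soleus, against 51.5 in brown, 24.5 in inguinal and 4.5 in epididymal fat. For miR-9 the muscles read 4 and 14 units, against 46, 10 and 4.5 in the same order of depots. For miR-129-3p they read 12.5 and 19.5 units, against 114, 9.5 and 9.5. Only 3 of the 8 (miR-128, miR-124 and miR-129-3p) reached 50 units on any array. The part of nerve RNA in the members' values was not tested.

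Summed over all 69 probes, the locus gave 4928.5 units in gastrocnemius and 4399 in soleus, against 1692 in brown, 1224 in inguinal and 1702 in epididymal fat. This was 3.42% and 2.66% of the summed intensity of mouse probes in the muscles, against 1.05%, 1.11% and 1.14% in the same order of depots. Such sums weight bright probes and are not molar shares. Set beside other groups, 6 of 7 muscle microRNAs were higher in every muscle over fat pair (median log2 4.62), and 0 of 5 detected members of the miR-17-92 polycistron, a cluster active in proliferating cells, were (median log2 -1.003). The locus members (7 of 21, median log2 1.09) lay between these groups, as did all mouse probes (8.21% of 207, median log2 0.08).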

How the data were processed

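MicroRNA from 5 mouse tissues was measured on 1 array each. The authors deposited, per the file headers, spot intensity for foreground and background and the background-subtracted intensity of each probe as the median of 4 spots; recomputing that median gave the same values. By the same headers the authors next divided each array by its median over microRNAs above 50 in all samples, giving normalized intensity, a ratio to that median. The scanner software is not given in the sources used here. Log2 ratios of normalized intensity between arrays were computed in Python 3.11.15. A value under 50 units was raised to the higher of itself and the lowest detected value of its array, and the fold is then a bound; a pair with both sides under 50 units has no fold. A member was called when at least 2-fold in every pair. Spot SEs combine the SDs of log2 spot values; their median SD was 0.16 over detected members. Alternatives were 6 scalings (with normexp, offset 50, in limma 3.58.1), floors of 100 and 10 units, unraised values, spot means and each array left out. Calling was checked on simulated data. Every detected member was named. Members and lists were chosen with earlier results of these data known. Precursor positions are those of RefSeq, GRCm38.p6. Array precision is limited by the number of arrays.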

Additional observations from a re-analysis of the deposited data

Results flagged for a closer look

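Beyond the listed microRNA numbers, 10 further numbers of the same stretch were looked for and 6 probes were found, none of them at 50 units on any array. Only miR-882, whose precursor lies between Rian and miR-379 in RefSeq, reached 10 units: it read 7.5 units in gastrocnemius and 15.5 in soleus, against 42.5 in brown, 10 in inguinal and 14.5 in epididymal fat. The highest negative control probe on the brown fat array read 6 units. Viral probes on that array read up to 197 units, with 5 of 39 at 10 units or more, so stray signal of this size occurs there. The reading was picked out because it lies outside the comparisons above and over the negative controls.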

How the results depend on the processing

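No paired analysis was possible because a single array stood for a tissue. The count of members called in muscle over fat (7) was 4 with normexp and quantile normalization, 2 with spike-in scaling, 4 with a floor of 100 units and 15 with the added floor of 10; over the white depots (7) it was 4, 2, 4 and 16 in the same order. Over brown fat (8) it was 5 with a floor of 100 and 13 with values under the floor as deposited. With a floor of 10 it was 22 in either direction, 21 higher and 1 lower in muscle. At that floor 13% of 331 mouse probes were higher and 10.9% lower. Brown over white (0) gave 1 with either 75th percentile, with quantile normalization, with spike-in scaling and with a floor of 10. Inguinal over epididymal (1) gave 0 with the 75th percentile of probes on all arrays and with normexp and quantile normalization, 7 with spike-in scaling and 3 with a floor of 10. Soleus over gastrocnemius (1) gave 2 with no scaling, with quantile normalization and with values as deposited. With a floor of 10 it gave 3 in either direction, 1 higher and 2 lower in soleus. Leaving out 1 array at a time gave 7 to 8 for muscle over fat, 9 to 10 over brown, 7 to 10 over white and 1 to 1 for brown over white. The median log2 ratio of brown over white (0.36) changed sign to -0.13 with the 75th percentile of all probes, -0.60 with spike-in scaling, -0.12 and -0.13 with floors of 100 and 10, and, leaving out 1 white depot, ran between -0.25 (without inguinal fat) and 0.54; that of inguinal over epididymal (-0.43) became 0.11 with the 75th percentile of probes on all arrays. Part of this follows from construction: spike-in scaling moved the median of the 123 probes detected on all arrays to -0.42 for muscle over fat (-0.03 as reported) and to -0.99 for inguinal over epididymal (-0.41 as reported), and a lower floor takes in more probes. Otherwise the cause was not tested. Both muscles were above all fat arrays for 11 members with spike-in scaling and 16 to 18 with the other scalings. Most counts in this paragraph stand without the share of all mouse probes, so a changed count may not be particular to the members. Signals near the floor limit what can be said of the 48 members under 50 units.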
